A study of Mus musculus with 16 samples.

Results

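The genes described here were the glucocorticoid receptor and 9 of its known target genes in mouse striatum, 10 members of the 48795 genes in the count table: Nr3c1, Fkbp5, Tsc22d3, Nfkbia, Zbtb16, Sgk1, Ddit4, Pdk4, Mt1 and Mt2. They were chosen by name as a group of known function, and Sgk1 and Ddit4 were already known to be low after Crym knockout (Crym KO) in these libraries, so the Crym KO against Control values of the members are given as a description, and counts of calls among them stand beside the share of all genes with nothing read from them. Each symbol matched 1 identifier, and all 10 passed the filter on low counts, which kept 20645 genes. All mice were CAG-Cas9-EGFP mice of both sexes, which carry Cas9 in all cells, and all received an AAV2/5 virus with the astrocyte GfaABC1D promoter driving Rpl22-HA, a tagged ribosomal protein, in the central striatum. The Crym KO mice also received an AAV2/5 virus with U6-driven guides against Crym, the gene of the thyroid hormone binding protein μ-crystallin, and the Control mice (labelled WT) one with a guide against GFP, a sequence these mice carry. From each of 4 Control and 4 Crym KO adult mice, ribosome-bound RNA was pulled down through the tag (IP, enriched for astrocytes) and RNA of the same lysate before the pull-down was kept (Input, all cell types), which gave 16 RNA-seq libraries in 4 groups of 4.

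Glucocorticoids, corticosterone in the mouse, are adrenal steroids that rise with the time of day and with stress. They bind the glucocorticoid receptor in the cytoplasm, which leaves its chaperones, enters the nucleus, binds palindromic response elements as a dimer and activates or represses nearby genes. Astrocytes express the receptor, and many of the genes that brain tissue turns on after glucocorticoid exposure, among them Sgk1, Fkbp5 and Tsc22d3, are measured in glial cells. Most of these genes also answer to other inputs, such as hypoxia, insulin, metals or inflammation.

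The sequences that the receptor and the metal sensor bind are shown first for 3 members, since Sgk1 differed most between genotypes and Mt1 and Mt2, which are neighbours, were the highest per exon length in Control IP. Start-site windows of 300 bases from RefSeq (GRCm38.p6, the same assembly as the mm10 of the files) were found for 8 of 10 members, 15 windows in all; Nr3c1 and Zbtb16 had no entry. Both strands were searched for the full glucocorticoid response element (AGAACA, any 3 bases, then TGTTCT), its relaxed form (GNACA, any 3 bases, then TGTNC), which the full form always contains, the half-site AGAACA, which the full form also contains on each strand, and the metal response element core TGCACNC or TGCGCNC. Of 32851 windows in the table, 0.0091% held the full element, 0.475% the relaxed form, 19.0% a half-site and 25.7% a metal response element core. In the lines that follow, capitals mark these matches, read 5′ to 3′ on the strand of the gene.
Sgk1, 1 of its 6 windows, chr10:21993640-21993939 (+): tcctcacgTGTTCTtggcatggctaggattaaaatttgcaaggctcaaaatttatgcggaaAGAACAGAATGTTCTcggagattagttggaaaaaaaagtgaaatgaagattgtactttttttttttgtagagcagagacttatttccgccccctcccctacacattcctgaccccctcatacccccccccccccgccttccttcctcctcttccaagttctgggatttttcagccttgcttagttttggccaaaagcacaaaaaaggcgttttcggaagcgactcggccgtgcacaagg
Mt1, chr8:94178839-94179138 (+): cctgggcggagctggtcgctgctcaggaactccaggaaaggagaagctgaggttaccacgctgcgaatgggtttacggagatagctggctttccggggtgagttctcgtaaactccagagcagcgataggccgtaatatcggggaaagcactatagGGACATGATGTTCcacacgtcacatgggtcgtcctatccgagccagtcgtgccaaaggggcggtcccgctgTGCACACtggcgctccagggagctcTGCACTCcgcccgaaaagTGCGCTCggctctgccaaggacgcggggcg
Mt2, chr8:94172368-94172667 (+): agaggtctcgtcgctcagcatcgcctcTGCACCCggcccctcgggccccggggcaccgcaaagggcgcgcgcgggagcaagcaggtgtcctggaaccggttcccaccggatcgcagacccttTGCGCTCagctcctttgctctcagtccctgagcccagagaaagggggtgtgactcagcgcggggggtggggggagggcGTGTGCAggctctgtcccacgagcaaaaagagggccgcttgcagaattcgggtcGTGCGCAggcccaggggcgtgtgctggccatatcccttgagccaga
The Sgk1 window shown held the exact full element, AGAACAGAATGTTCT, starting at base -189 from the start site, and 1 further half-site upstream of it. Of the other Sgk1 windows, those from 21881934 and 21991973 held a half-site and that from 21994416 a metal response element core. Those from 21978422 and 21985854 held none of the 4 motifs. Which Sgk1 start site was in use was not analysed here. No other member had the full element in a window. The Mt1 window held the relaxed form GGACATGATGTTC at base -94 and 3 metal response element cores. The Mt2 window, on the same chromosome just upstream of Mt1, held 4 metal response element cores and neither glucocorticoid form. Of the other members, 1 of the Tsc22d3 windows held a half-site at base -185, the Nfkbia and Ddit4 windows held 1 metal response element core each, and the Fkbp5 and Pdk4 windows held none of the 4 motifs. These matches describe letters in a short window, and binding was not measured.

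Total counts were 52632309 to 62596661 per IP library and 39421209 to 54235574 per Input library, and no 2 libraries were identical. Levels are CPM, reads of a gene relative to the library total after TMM correction, and differences are on the log2 scale. Crym, the targeted gene, was at 125 to 222 CPM in Control IP and 47.9 to 76.0 CPM in Crym KO IP, without overlap, so that Crym KO IP was at 34.9% of Control IP (log2 difference -1.52, SE 0.16, limma-voom adjusted p = 0.000514). In Input the targeted gene was at 51.8 to 64.6 CPM in Control and 41.0 to 52.5 CPM in Crym KO. The summed level of 8 astrocyte markers was 15903 to 22291 CPM in Control IP, 21291 to 24792 CPM in Crym KO IP and 5275 to 5784 CPM in Input. Control mouse 2 had the lowest sum in IP, while Control mice 1, 3 and 4 were at 21376, 21204 and 22291 CPM. The summed levels of 8 microglia markers (39.7 to 48.1 CPM in IP, 431 to 503 CPM in Input) and 8 endothelial markers (8.83 to 11.9 against 95.8 to 124 CPM) were lower in IP. Oligodendrocyte markers were as high in IP as in Input (3715 to 7311 against 4734 to 6209 CPM) and medium spiny neuron markers higher in IP (3307 to 4258 against 1875 to 2826 CPM), so the pull-down still held RNA of these cells. Control mouse 4 stood apart, with choroid plexus and ependymal markers summing to 630 CPM in Input and 247 CPM in IP, against 25.4 to 35.8 CPM and 59.0 to 159 CPM in the other libraries. Several results are also given without the 2 libraries of this mouse.

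**Figure D1:**
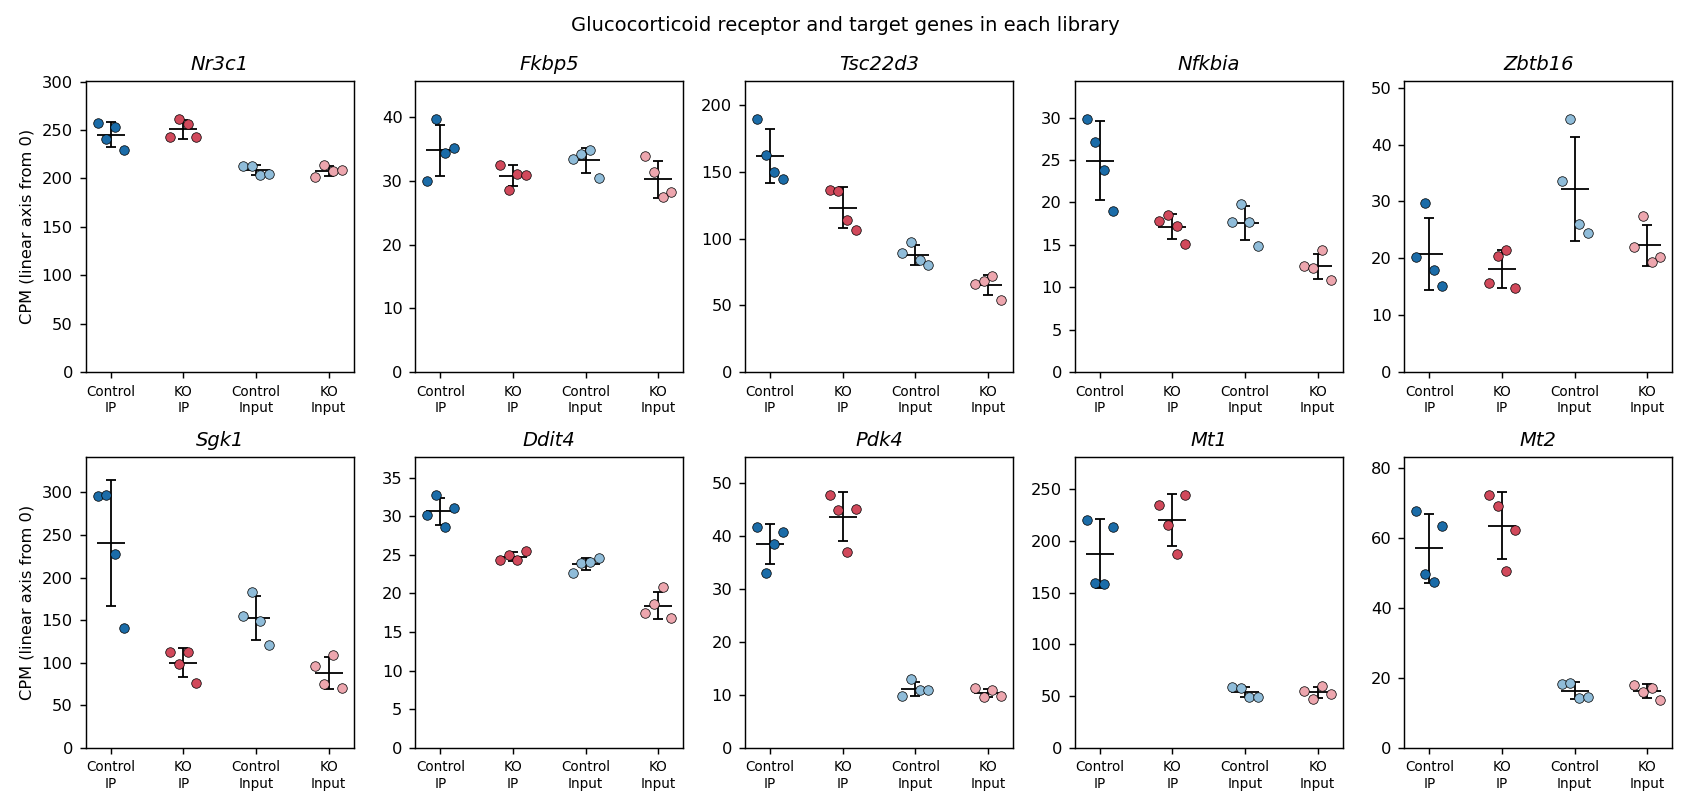
CPM of the 10 members in each of the 16 libraries, by group; points are the 4 mice of a group in the order of their numbers, the long dash is the mean and the bars are 1 SD, on linear axes from 0. The Sgk1, Tsc22d3, Nfkbia and Ddit4 points of Crym KO lie below all Control points of the same fraction, and Pdk4, Mt1 and Mt2 separate IP from Input.

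The receptor itself, Nr3c1, was level across mice and genotypes. In mice 1 to 4, Nr3c1 was at 258, 241, 253 and 229.9 CPM in Control IP and at 243, 261, 256 and 242 CPM in Crym KO IP. In Input the values were 213, 213, 203 and 205 CPM in Control and 201, 214, 207 and 208 CPM in Crym KO. The ranges of the genotypes overlapped in both fractions, while IP and Input did not overlap. The Crym KO minus Control difference of Nr3c1 was 0.03 in IP and -0.01 in Input (SE 0.04 each), and its coefficient of variation was at most 5.12% in any group. Nr3c1 rose in IP over Input in each genotype, by 0.23 in Control (SE 0.04, limma-voom adjusted p = 6.7e-05) and 0.27 in Crym KO (adjusted p = 1.4e-05). This small enrichment depended on the scaling, and under library size scaling it was 0.04 in Control and 0.08 in Crym KO, with adjusted p = 0.371 and 0.0884.

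Sgk1, which encodes a serum and glucocorticoid regulated kinase that acts on ion channels and transporters, had the largest difference between genotypes of the 10 members. It was at 296, 297, 227 and 140.2 CPM in Control IP mice 1 to 4 and at 112, 98.8, 113 and 76.0 CPM in Crym KO IP mice 1 to 4. Control IP mouse 4 was low but lay above all 4 Crym KO mice. In Input, Sgk1 was at 155, 183, 149 and 121 CPM in Control and 96.4, 75.0, 109 and 69.7 CPM in Crym KO, again without overlap. The group means were 240.1 ± 74.2 CPM in Control IP, 152 ± 25.7 CPM in Control Input, 99.9 ± 17.1 CPM in Crym KO IP and 87.6 ± 18.5 CPM in Crym KO Input (SD, n = 4 each), in that order. Neighbours in this order overlapped except Control Input and Crym KO IP. Crym KO was at 42.9% of Control in IP (log2 difference -1.22, SE 0.21) and 57.4% in Input (-0.80, SE 0.21). Without both libraries of Control mouse 4 the differences were -1.46 (SE 0.16) and -0.91 (SE 0.16). Over the alternative analyses the IP difference ran from -1.46 to -1.10 and the Input difference from -0.92 to -0.70. As these are bulk libraries, fewer cells of a type and less RNA per cell cannot be told apart.

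Ddit4, which encodes an inhibitor of mTORC1 signalling that is turned on by glucocorticoids and by hypoxia, had smaller but very even differences. In Control IP it was at 30.2, 32.8, 28.6 and 31.0 CPM, and in Crym KO IP at 24.3, 24.98, 24.3 and 25.5 CPM. In Input it was at 22.6, 23.9, 24.04 and 24.6 CPM in Control and at 17.5, 18.6, 20.8 and 16.8 CPM in Crym KO. All 4 Crym KO values lay below all 4 Control values in each fraction. Crym KO was at 80.9% of Control in IP (log2 difference -0.30, SE 0.05) and 77.2% in Input (-0.37, SE 0.06). Its coefficient of variation in Crym KO IP, 2.46%, was the lowest of any member in any group.

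Tsc22d3, which encodes the anti-inflammatory protein GILZ, was at 190, 163, 150 and 145 CPM in Control IP and at 137, 136, 114 and 106 CPM in Crym KO IP. In Input it was at 89.1, 97.6, 83.8 and 80.1 CPM in Control and 66.3, 68.3, 72.3 and 54.2 CPM in Crym KO. The 4 groups did not overlap at all, in the order Control IP, Crym KO IP, Control Input and Crym KO Input. Crym KO was at 76.2% of Control in IP (log2 difference -0.39, SE 0.10) and 74.4% in Input (-0.43, SE 0.11).

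Nfkbia encodes IκBα, which holds NF-κB in the cytoplasm and is a target of both the receptor and NF-κB. It was at 29.8, 27.2, 23.8 and 19.0 CPM in Control IP and at 17.8, 18.5, 17.2 and 15.1 CPM in Crym KO IP. In Input it was at 17.7, 19.8, 17.7 and 14.9 CPM in Control and 12.5, 12.3, 14.4 and 10.8 CPM in Crym KO. The genotypes did not overlap in either fraction, but Control mouse 4, at 18.97 CPM in IP, lay just above Crym KO mouse 2 at 18.54 CPM. Crym KO was at 69.2% of Control in IP (log2 difference -0.53, SE 0.12) and 71.6% in Input (-0.48, SE 0.14). Without both libraries of Control mouse 4 the Nfkbia differences were -0.65 (SE 0.09) in IP and -0.56 (SE 0.10) in Input.

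Fkbp5 encodes a co-chaperone that lowers the affinity of the receptor for hormone and is among the genes most used as a readout of receptor activity. Its differences between genotypes were smaller than those of Sgk1, Ddit4, Tsc22d3 and Nfkbia. It was at 29.95, 39.7, 34.4 and 35.2 CPM in Control IP, 32.6, 28.6, 31.1 and 30.9 CPM in Crym KO IP, 33.4, 34.2, 34.9 and 30.5 CPM in Control Input and 33.9, 31.3, 27.5 and 28.3 CPM in Crym KO Input. All neighbouring groups overlapped. The Crym KO minus Control difference was -0.17 in IP and -0.13 in Input (SE 0.08 each), or 88.7% and 91.1% of Control. The unadjusted limma-voom p of Fkbp5 was 0.043 in IP and 0.116 in Input.

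Zbtb16, which encodes the zinc finger transcription factor PLZF, was at 20.2, 29.7, 17.96 and 15.1 CPM in Control IP and 15.7, 20.4, 21.5 and 14.8 CPM in Crym KO IP. In Input it was at 33.7, 44.5, 26.0 and 24.4 CPM in Control and 22.0, 27.5, 19.3 and 20.3 CPM in Crym KO. Control mouse 2 was the highest of its group in both fractions, and the genotypes overlapped. The Crym KO minus Control difference was -0.18 in IP (SE 0.22) and -0.49 in Input (SE 0.20). Without Control IP mouse 2 the IP value was 0.02, so that its sign turned, and without both libraries of Control mouse 4 the values were -0.31 (SE 0.21) in IP and -0.61 (SE 0.20) in Input.

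Pdk4 encodes a kinase that shuts pyruvate out of the mitochondrial oxidation pathway, and Mt1 and Mt2 encode metallothioneins, which bind zinc and copper. None of the 3 was lower in Crym KO IP. Pdk4 was at 41.6, 33.1, 38.4 and 40.6 CPM in Control IP and 47.8, 44.9, 36.9 and 45.0 CPM in Crym KO IP, against 9.60 to 12.9 CPM in all 8 Input libraries. Mt1 was at 220.1, 159, 158 and 213 CPM in Control IP and 235, 215, 187 and 245 CPM in Crym KO IP, against 47.4 to 59.5 CPM in Input. Mt2 was at 67.6, 49.7, 47.6 and 63.4 CPM in Control IP and 72.4, 69.3, 50.5 and 62.2 CPM in Crym KO IP, against 13.6 to 18.6 CPM in Input. The genotypes overlapped for each of these genes in each fraction. In IP the Crym KO minus Control difference was 0.18 for Pdk4 (SE 0.08), 0.24 for Mt1 (SE 0.11) and 0.16 for Mt2 (SE 0.12), and in Input -0.10 (SE 0.13), 0.00 (SE 0.12) and 0.00 (SE 0.17). The ratio of Mt1 to Mt2 counts was 2.98 to 3.93 over the 16 libraries.

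**Figure D2:**
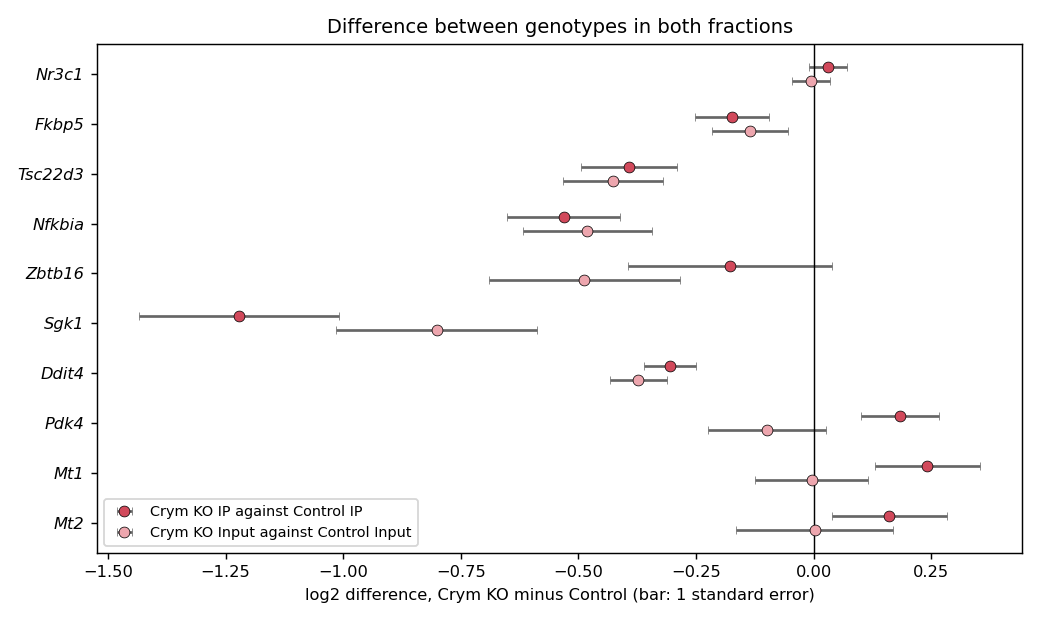
Crym KO minus Control log2 difference of each member from the limma-voom fit, in IP (dark) and Input (light); bars are 1 SE and the vertical line is 0. Sgk1 lies farthest to the left in both fractions (-1.22 and -0.80), Nr3c1 sits on 0, and Pdk4, Mt1 and Mt2 lie to the right in IP.

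Counted over the members, 4 of 10 lay lower in Crym KO without overlap in IP, and the same 4 (Ddit4, Nfkbia, Sgk1 and Tsc22d3) in Input, while 0 lay higher without overlap in either. Over all genes tested, 1.52% lay lower and 1.21% higher without overlap in IP, and 2.77% lower and 2.9% higher in Input. IP and Input came from the same 8 mice and are no independent repeats. At an adjusted p under 0.05 in limma-voom, 0 of 10 members were called in either fraction, beside 0.0339% of all genes in IP (7 genes) and 0.00969% in Input (2 genes). At an unadjusted p under 0.05 the count was 7 members in IP (5 lower, 2 higher) and 5 in Input (all lower), and among all genes 7.67% and 7.07%. Other tools gave other counts. In IP, 1 member was called by edgeR (Sgk1) and 3 by DESeq2 (Nfkbia, Sgk1 and Ddit4). In Input, 0 were called by edgeR and 2 by DESeq2 (Tsc22d3 and Ddit4). Over all genes DESeq2 called 71 in IP and 47 in Input, and the edgeR count over all genes is not given here. With the mouse number as a replicate block 4 members were called in each fraction, Tsc22d3, Nfkbia, Sgk1 and Ddit4. That block called 43 of all genes in IP and 15 in Input. Without both libraries of Control mouse 4, Nfkbia and Sgk1 were called in IP, beside 61 of all genes. Since members were known to be low in this contrast, nothing is read from these counts.

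Equal mouse numbers were of equal sex (1 and 2 female, 3 and 4 male, by Xist and Ddx3y counts), so each sex could be compared with 2 mice a group. In IP, Sgk1 in Crym KO was at 35.6% of Control in females and 51.3% in males, and in Input at 50.7% and 66.3%. Ddit4 was at 78.3% and 83.6% in IP and 77.5% and 77.3% in Input. Tsc22d3 was at 77.3% and 74.9% in IP and 72.1% and 77.2% in Input. Nfkbia was at 63.7% and 75.6% in IP and 66.0% and 77.2% in Input. As the groups of these 4 genes do not overlap, their direction within each sex was fixed. Zbtb16 in IP was at 72.4% in females and 110% in males.

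The size of the difference in the pull-down can be set beside that in Input, as a description, since the same libraries made the members known. The Crym KO effect in IP minus that in Input was -0.42 for Sgk1 (SE 0.30), 0.07 for Ddit4 (SE 0.08), 0.03 for Tsc22d3 (SE 0.15) and -0.05 for Nfkbia (SE 0.18). In limma-voom 0 of 10 members were called for this difference, 0 at an unadjusted p under 0.05, 0 by edgeR and 0 by DESeq2, beside 0% of all genes called and 3.41% at an unadjusted p under 0.05. Some cell type markers also moved with genotype. In IP all 8 oligodendrocyte markers were lower in Crym KO by value (median -0.32, 6 at an unadjusted p under 0.05, 0 called). Their summed levels in IP were 4924 to 7311 CPM in Control and 3715 to 5802 CPM in Crym KO. The 8 astrocyte markers had a median of 0.11 in IP, with 7 higher by value, 2 at an unadjusted p under 0.05 and 0 called. Their median in Input was -0.04. Among all genes, 7.67% had an unadjusted p under 0.05 in IP and 7.07% in Input. In Input the oligodendrocyte markers had a median of 0.00. The 8 medium spiny neuron markers, all higher by value in Input, had a median of 0.23 there (4 at an unadjusted p under 0.05), with sums of 1875 to 2345 CPM in Control and 2246 to 2826 CPM in Crym KO. All 8 choroid plexus and ependymal markers were lower in Crym KO by value in each fraction, with medians of -0.28 in IP and -0.34 in Input (0 at an unadjusted p under 0.05). Without both libraries of Control mouse 4, chosen after the values were seen, 8 were lower in IP (median -0.22) and 6 in Input (median -0.10). The oligodendrocyte medians were then -0.41 in IP, with 8 lower, and 0.04 in Input. Endothelial markers had medians of -0.14 in IP and 0.07 in Input, mural markers of 0.23 and 0.17, and microglia markers of -0.22 and -0.08, with 0 called in limma-voom. At an unadjusted p under 0.05 in IP, 3 of 7 mural markers were higher and 2 of 8 microglia markers lower. In Input, 4 of 8 endothelial markers (3 higher, 1 lower), 1 mural marker (higher) and 2 microglia markers (1 higher, 1 lower) were under 0.05. DESeq2 called 1 microglia marker (C1qa) and 1 mural marker (Vtn) in IP. The part of these shifts in the members' values was not tested.

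The enrichment of the members in the astrocyte pull-down was not itself used to choose them. Sgk1 and Ddit4 were, however, already known to be low in Crym KO in these libraries, which also enter the contrasts of IP against Input. The values of Sgk1 and Ddit4 are therefore not independent of that knowledge in either genotype, and are given as a description. In Control, limma-voom called 8 members higher in IP than Input and 1 lower, beside 36.7% of all genes called higher and 38.5% lower, and in Crym KO 7 higher and 0 lower, beside 36.2% and 37.9%. At an unadjusted p under 0.05, the count in Crym KO was likewise 7 higher and 0 lower. The median of the 10 members was 0.56 in Control and 0.44 in Crym KO, against -0.02 for all genes in each genotype. The 8 medium spiny neuron markers had medians of 0.59 and 0.50 in the same contrasts, and the 8 oligodendrocyte markers 0.30 and -0.04. A median of the size seen for the members was thus not particular to astrocyte genes. Under upper quartile and library size scaling the median of all genes moved by -0.16 and -0.19, so that the members' values are relative to TMM scaling.

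Pdk4, Mt1 and Mt2 rose most in IP. Pdk4 was 3.45-fold higher in IP than Input in Control (log2 difference 1.79, SE 0.10, limma-voom adjusted p = 2.6e-10) and 4.19-fold in Crym KO (2.07, adjusted p = 6.2e-11). Mt1 was 3.46-fold and 4.10-fold higher (1.79 and 2.04, adjusted p = 8.2e-10 and 1.8e-10), and Mt2 3.48-fold and 3.89-fold (1.80 and 1.96, adjusted p = 1.1e-08 and 4.4e-09). The 8 astrocyte markers had medians of 2.13 and 2.28 in the same contrasts. In all 8 mice these 3 genes were higher in IP than in the Input of the same mouse, by 1.35 to 2.23 on the log2 scale. Tsc22d3 rose by 0.88 in Control (SE 0.10, adjusted p = 9.3e-07) and 0.91 in Crym KO (adjusted p = 7.3e-07), and was higher in IP in all 8 mice. Nfkbia rose by 0.50 (SE 0.12, adjusted p = 0.00126) and 0.45 (SE 0.14, adjusted p = 0.00686), a value that in Crym KO did not pass under upper quartile and library size scaling (adjusted p = 0.0627 and 0.102), and Ddit4 by 0.36 (SE 0.06, adjusted p = 2e-05) and 0.43 (SE 0.06, adjusted p = 7e-06), also in all 8 mice.

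The call on Sgk1 in Control lay near the threshold when a library was left out. Sgk1 rose in IP by 0.61 in Control (SE 0.21, limma-voom adjusted p = 0.0149), by 0.22 to 0.93 within single mice, and differed by 0.19 in Crym KO (SE 0.22, adjusted p = 0.425), by 0.04 to 0.40 within single mice. Without Control IP mouse 1, Control IP mouse 2 or Control Input mouse 4, the Control value was 0.50, 0.50 and 0.51 and lost the call at adjusted p = 0.0501, 0.0504 and 0.0545, and it also did so under upper quartile and library size scaling (adjusted p = 0.0641 and 0.0832). That one genotype passed and the other did not is no test of a difference, and the value of that difference was given above (-0.42, SE 0.30). Zbtb16 was the only member that fell in IP, with a log2 difference of -0.62 in Control (SE 0.20, adjusted p = 0.0114), with all 4 mice lower in IP. In Crym KO the value was -0.31 (SE 0.22, adjusted p = 0.209) and Crym KO mouse 3 was higher in IP by 0.15. With the mouse as a block, since IP and Input of a mouse are paired, Zbtb16 also passed in Crym KO (adjusted p = 0.0114). Fkbp5 did not separate IP from Input, with 0.06 in Control (adjusted p = 0.476) and 0.02 in Crym KO (adjusted p = 0.795), and 2 of 4 mice above 0 in each genotype, and its sign turned under upper quartile (-0.10 and -0.14) and library size scaling (-0.13 and -0.17).

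**Figure D3:**
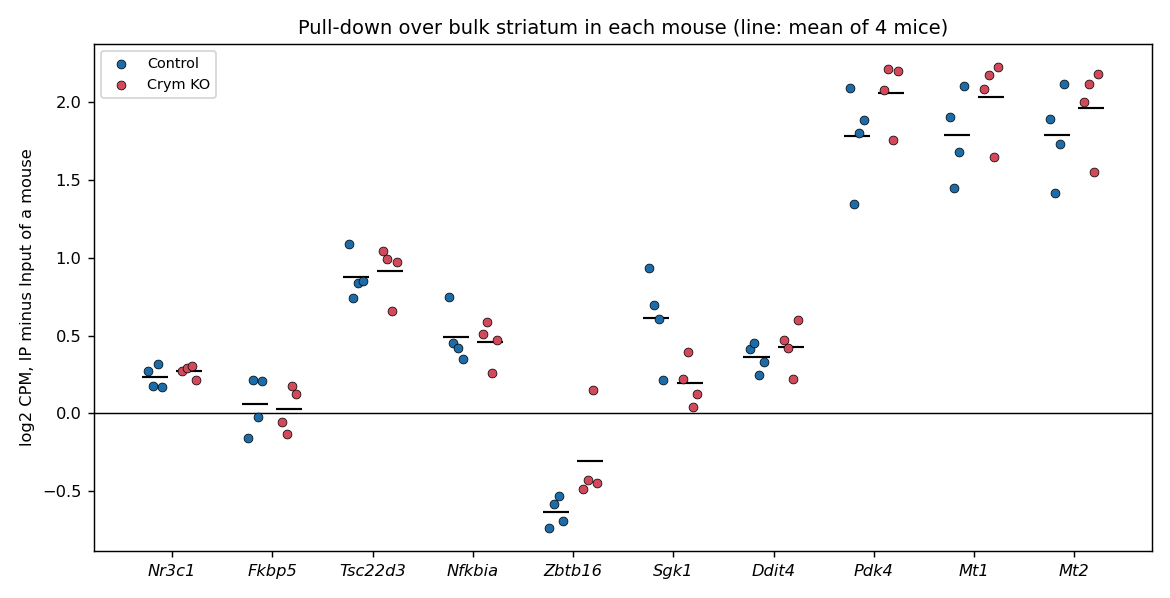
log2 CPM in IP minus Input of the same mouse for each member, Control in blue and Crym KO in red; each point is 1 mouse, the short line is the mean of 4 mice and the horizontal line at 0 is equal level. Pdk4, Mt1 and Mt2 lie between 1.35 and 2.23, Fkbp5 spreads around 0 and Zbtb16 lies below 0 in all Control mice.

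Divided by annotated exon length, the order of levels in Control IP was Mt1 at 151 CPM per kb, Mt2 at 97.1, Sgk1 at 49.0, Tsc22d3 at 37.3, Nr3c1 at 31.9, Ddit4 at 17.5, Nfkbia at 15.5, Pdk4 at 10.9, Zbtb16 at 3.92 and Fkbp5 at 3.68 CPM per kb. In Crym KO IP, Sgk1 was at 20.4 CPM per kb, below Nr3c1 at 32.6 and Tsc22d3 at 28.4 CPM per kb. Sgk1 lies at chr10:21882184-21999903 on the plus strand and Ddit4 at chr10:59949669-59951834 on the minus strand of GRCm38. Mt1 and Mt2 are neighbours on chromosome 8, and counting kept uniquely placed reads, so reads that match both would be missing from each. Only 1 overlapping gene model with counts in the table was found for any member, Gm45774 on the strand opposite to Mt2, with 0.669% of the Mt2 counts.

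Mouse-to-mouse variation, after the group mean was subtracted, was followed over the 8 mice of each fraction for all 45 pairs of members, 90 tests in all. Sgk1 and Nfkbia went together, with Pearson's r = 0.938 and Spearman's rho = 0.881 in IP (exact permutation within genotype, two-sided p = 0.0208 and 0.0469) and r = 0.935 and rho = 0.905 in Input (exact p = 0.00347 and 0.00521). Without the 2 mice farthest from the median, r was 0.847 in IP and 0.854 in Input. After adjustment over all 90 pairs none passed, with adjusted p = 0.273 for r in both fractions, and the smallest p that the 576 arrangements allow is 0.00174. Tsc22d3 and Nfkbia had r = 0.824 and rho = 0.881 in IP and r = 0.899 and rho = 0.714 in Input (exact p of r = 0.0139 each, adjusted p = 0.273; r without 2 mice 0.767 and 0.784). Mt1 and Mt2 had r = 0.880 and rho = 0.857 in IP (exact p of r = 0.0365, adjusted p = 0.326; r without 2 mice 0.758) and r = 0.746 and rho = 0.571 in Input (exact p of r = 0.102, adjusted p = 0.535; r without 2 mice 0.889). Only group means were subtracted, so differences that go with sex or mouse number enter r and its p. With the mean of each sex within a group subtracted instead, as values with no test and chosen after the values were seen, r in IP and Input was 0.871 and 0.915 for Sgk1 and Nfkbia, 0.651 and 0.923 for Tsc22d3 and Nfkbia, and 0.994 and 0.922 for Mt1 and Mt2.

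Whether the members varied as 1 unit cannot be decided from so few mice. No pair passed adjustment, and the r of Sgk1 and Ddit4 changed with the mice or means used. In Input 39 of 45 pairs were positive (median r = 0.39), and in IP 22 of 45 (median r = -0.01), with 6 pairs at an unadjusted exact permutation p under 0.05 in each fraction. Sgk1 and Ddit4, the members first known to be low, had r = -0.07 in IP and 0.40 in Input (rho = 0.00 and 0.10, exact p of r = 0.873 and 0.441, adjusted p = 0.934 and 0.784; r without 2 mice 0.586 and 0.315; r with sex means subtracted -0.75 and 0.63). Sgk1 and Fkbp5 had r = -0.01 in IP and 0.26 in Input (rho = 0.12 and 0.07, exact p of r = 0.993 and 0.587, adjusted p = 0.993 and 0.813; r without 2 mice 0.01 and 0.61).

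**Figure D4:**
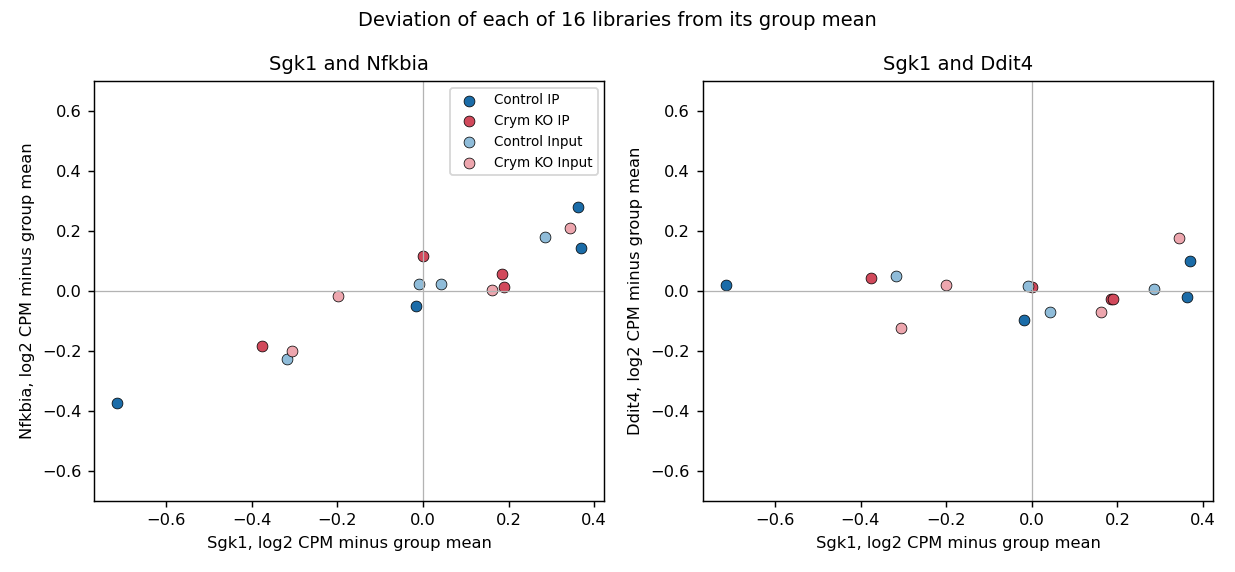
Deviation of each of the 16 libraries from its group mean in log2 CPM, Sgk1 on the horizontal axis against Nfkbia (left) and Ddit4 (right); colours are the 4 groups. Nfkbia follows Sgk1 over the 16 libraries (r = 0.936), though in Crym KO IP Nfkbia is highest in mouse 2 and Sgk1 in mouse 3. Ddit4 stays near 0 over the whole Sgk1 range (r = 0.163).

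Over all 15378 genes with a mean of at least 1 CPM, the gene whose deviations were most like those of Sgk1 over the 16 libraries from 8 mice was Nfkbia (r = 0.936), followed by Cebpz (0.933), Errfi1 (0.929), Mphosph10 (0.917) and Zfp281 (0.912). Errfi1, an inhibitor of the EGF receptor, is itself on the list of other glucocorticoid-induced genes. Tsc22d3 ranked at place 223 (r = 0.720) and Ddit4 at place 5217. For Ddit4 the nearest were Gm9794 (r = 0.820), A930017M01Rik (0.818), Gm43712 (0.797), 4933421O10Rik (0.771) and Nts (0.758), and for Fkbp5 they were Fbxo25 (0.882), Lrfn5 (0.841), Lzts1 (0.818), Gm37254 (0.813) and Gm26805 (0.812). These correlations are a description, since 2 libraries of each mouse share an animal.

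A wider list of 24 other genes known to be induced by glucocorticoids was set beside the members. The list was drawn up with earlier results of these data known, and its genes were measured in the same 8 mice, so its counts are a description. In Input 23 of the 24 lay lower in Crym KO by value, with a median of -0.19, against 10357 of 20645 genes and a median of -0.00 over all genes tested. The 23 include Fam107a at -9e-05 and genes near the floor, such as Lcn2 (0.13 against 0.16 CPM, SE 1.64) and Anxa1 (0.55 against 0.96 CPM). In IP 16 of 24 lay lower, with a median of -0.06, against 10041 of 20645 genes and a median of 0.00. Without both libraries of Control mouse 4 these counts were again 23 and 16, with medians of -0.22 and -0.07. None was called, with 0 in each fraction by limma-voom, by edgeR, by DESeq2 and with the replicate block. At an unadjusted p under 0.05 the list had 6 genes in Input, all lower, and 8 in IP, 6 lower and 2 higher. Among all genes, 7.07% in Input and 7.67% in IP were under 0.05. The smallest p in IP belonged to the cell cycle inhibitor Cdkn1a (-0.39, SE 0.11, limma-voom adjusted p = 0.460) and to Hif3a, a hypoxia-inducible factor (-0.82, SE 0.24, adjusted p = 0.478). In Input it belonged to the astrocyte connexin Gjb6 (-0.27, SE 0.11, adjusted p = 0.654) and to Bcl2l1, an inhibitor of cell death (-0.10, SE 0.04, adjusted p = 0.654). The list ran from -1.18 to 0.05 in Input and from -0.82 to 0.38 in IP. In Control, limma-voom called 12 of the 24 higher in IP than Input and 2 lower, beside 36.7% of all genes called higher and 38.5% lower. Those called were led by Gjb6 (1.55, SE 0.10, adjusted p = 5.1e-10), Fam107a (1.46, SE 0.09, adjusted p = 6.1e-10), Nedd9 (0.86, SE 0.06, adjusted p = 2.2e-09) and Cdkn1a (1.86, SE 0.14, adjusted p = 4.4e-09).

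**Figure D5:**
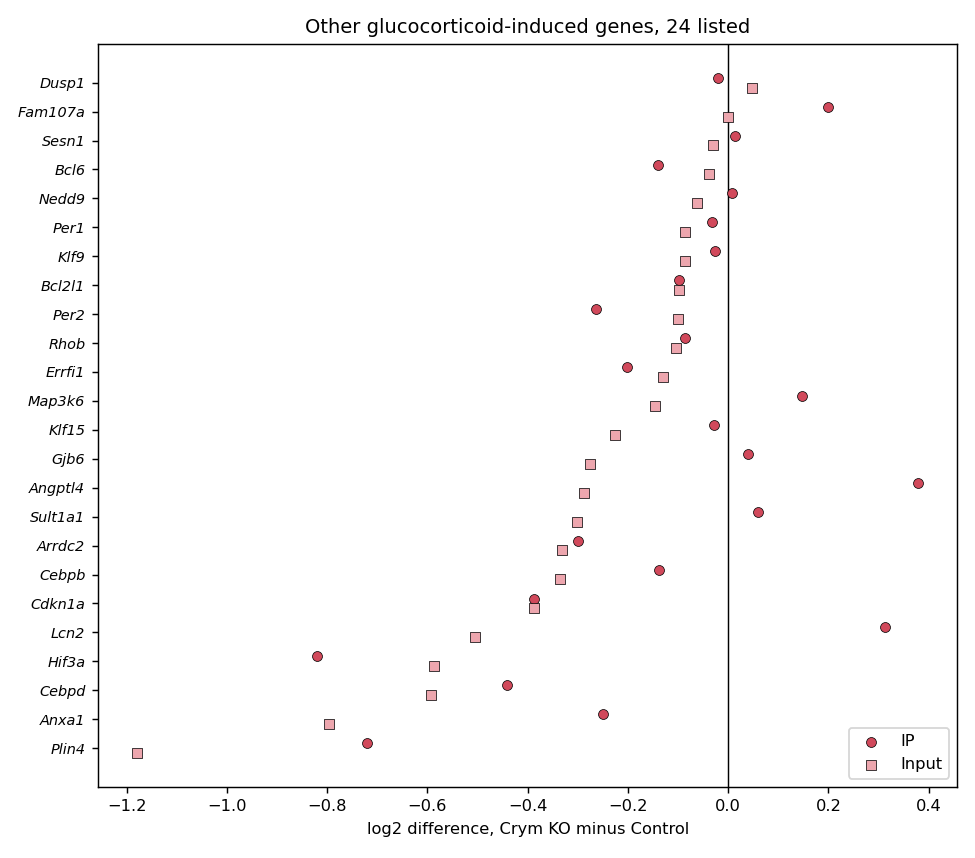
Crym KO minus Control log2 difference of the 24 other glucocorticoid-induced genes, IP as circles and Input as squares, ordered by the Input value; the vertical line is 0. In Input 23 of 24 squares lie left of 0, with Fam107a at -9e-05, while 16 of 24 circles do in IP.

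The machinery around the receptor showed no called change with genotype in limma-voom. Of 21 listed chaperones, cofactors and genes that handle the hormone, 20 were tested, Hsd11b2 not. In IP 0 were called (4 at an unadjusted p under 0.05, 0 by edgeR, 1 by DESeq2). In Input 0 were called (2 at an unadjusted p under 0.05, 0 by edgeR, 0 by DESeq2). Among all genes, 7.67% in IP and 7.07% in Input had an unadjusted p under 0.05, and DESeq2 called 71 in IP. The DESeq2 call was Abcb1a, the P-glycoprotein pump of brain endothelium that exports steroids, at -0.57 in IP (SE 0.17, limma-voom adjusted p = 0.47), and it was 0.12 in Input. Dnajb1, a co-chaperone of heat shock proteins, had -0.15 in both fractions (SE 0.05), and the receptor co-chaperone Fkbp4 had -0.11 in Input (SE 0.04, adjusted p = 0.65). In Control the pull-down held 13 of these genes higher and 3 lower, beside 36.7% of all genes called higher and 38.5% lower. Among them were the chaperones Hspa4 (0.76, SE 0.03) and Hsp90ab1 (0.84, SE 0.04), which were higher, and Abcb1a (-3.46, SE 0.12), which was lower (limma-voom adjusted p = 4.4e-12, 2.2e-11 and 1e-12).

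Of 31 family members and direct partners of the members, limma-voom called 0 in IP (3 at an unadjusted p under 0.05) and 0 in Input (4 at an unadjusted p under 0.05). The tools edgeR and DESeq2 called 0 as well. Among all genes, 7.67% in IP and 7.07% in Input had an unadjusted p under 0.05. The smallest p in IP belonged to Sgk2, a second kinase of the Sgk family (-0.35, SE 0.15, adjusted p = 0.59), and to Pdpk1, which encodes the kinase that activates Sgk1 (0.08, SE 0.03, adjusted p = 0.63). In Input it belonged to the zinc exporter Slc30a1 (0.15, SE 0.04, adjusted p = 0.54) and to Nedd4l, which encodes a ubiquitin ligase that Sgk1 phosphorylates (0.14, SE 0.05, adjusted p = 0.65). Of 12 immediate early genes, which respond within minutes to activity or handling, 0 were called by limma-voom, edgeR or DESeq2 and 0 had an unadjusted p under 0.05 in either fraction. Npas4 had 0.34 in IP (SE 0.18) and 0.33 in Input (SE 0.16), and Egr2 had 0.21 in IP (SE 0.13). Of 12 circadian clock genes, listed because glucocorticoids follow the time of day, 0 were called by limma-voom, edgeR or DESeq2. In each fraction 1 had an unadjusted p under 0.05, Npas2 in IP (0.21, SE 0.09) and Nr1d1 in Input (-0.16, SE 0.07). Per1 and Per2 are also clock genes but were counted among the other glucocorticoid-induced genes. They had -0.03 (SE 0.06) and -0.26 (SE 0.11) in IP, with Per2 at an unadjusted p under 0.05. In Input they had -0.09 (SE 0.07) and -0.10 (SE 0.12). In Control the pull-down held 23 of the 31 partners higher and 4 lower, 5 of the immediate early genes higher and 3 lower, and 7 of the clock genes higher and 4 lower at an adjusted p under 0.05 in limma-voom. Of all genes, 36.7% were called higher and 38.5% lower in that contrast. The hormone itself and the hour of dissection were not analysed here.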

How the data were processed

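As the methods of the study describe, RNA was depleted of ribosomal RNA, libraries were sequenced paired-end in 1 pool, and STAR alignments to mm10 (GRCm38) were counted with HTSeq. The submitters' processing notes add bcl2fastq 2.17. The authors deposited 1 table of whole-number counts per gene for the 16 libraries, with 48795 Ensembl identifiers, of which 48349 matched a symbol. The methods name a RefSeq gene model, so the gene model is uncertain, and use of strand is not given in the sources used here.

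The members and all gene lists were chosen with earlier results of these data known. Groups came from the labels. limma-voom (limma 3.58.1, edgeR 4.0.16, R 4.3.3), which the study names, was fitted to all 16 libraries as 4 group means without covariates, with TMM scaling and edgeR's filterByExpr, with two-sided p-values adjusted by Benjamini-Hochberg over 20645 genes at 0.05. The voom moderated p-values treat the IP and Input libraries of 1 mouse as separate samples. CPM used TMM-corrected library sizes, with 0.1 CPM added before logs. The script was tested on simulated data. Alternatives were edgeR's quasi-likelihood test, DESeq2 1.42.0, other scalings, no filter, contrast groups alone, blocks, a sex term and leaving out libraries. Leaving out Control mouse 4 from counts of members without overlap (where it cannot undo a lack of overlap), of listed genes lower by value and from marker medians, and subtracting sex means in the co-variation, were added after seeing the data. Exact permutations within genotype gave co-variation p-values.

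IP and Input with the same number came from the same mouse per the labels, and Control and Crym KO with the same number did not. Across genes, the deviations of same-number IP and Input libraries from their group means correlated at 0.231 to 0.463 in Control mice and 0.0728 to 0.268 in Crym KO mice (3 of 4 above 0.1). Same-number mice of opposite genotype correlated at 0.163 to 0.312 in IP, all 4 above 0.1, and 0.0646 to 0.195 in Input (2 of 4).

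All 10 members are named. From each other list at most 4 called genes with the smallest p are named in a contrast, or at most 2 where none was called, with Abcb1a added in Input after its value was seen. Per1 and Per2 were also added after their values were seen, as clock genes on another list. For likeness the 5 genes with the highest r are named.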

Additional observations from a re-analysis of the deposited data

How the results depend on the processing

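Members called in Crym KO IP against Control IP were 0 in limma-voom, 1 with edgeR, 3 with DESeq2, 4 with the replicate block, 1 with a sex term, 2 without both libraries of Control mouse 4, and 0 to 2 with 1 library left out (Ddit4 without Control IP mouse 3 or Crym KO Input mouse 3; Nfkbia and Sgk1 without Control IP mouse 4). In Input the 0 became 2 with DESeq2, 4 with the replicate block, and 0 to 1 with 1 library left out (Ddit4 without Crym KO Input mouse 3). All genes called in IP went from 7 to 71 with DESeq2, 43 with the replicate block, 15 with a sex term, 2 with the groups of the contrast alone, 11 without Control IP mouse 3, 36 without Control IP mouse 4 and 61 without both libraries of that mouse, and in Input from 2 to 47 with DESeq2, 7 without a filter, 15 with the block, 0 with the groups of the contrast alone, 1 without both libraries of Control mouse 4, and 0 to 3 with 1 library left out. For IP against Input, the Fkbp5 value turned to -0.10 in Control and -0.14 in Crym KO under upper quartile scaling, to -0.13 and -0.17 under library size scaling, and in Crym KO ran from -0.0177 to 0.0890 with 1 library left out, so its direction is not settled. Those 2 scalings also took the call from Nr3c1 and Sgk1 in Control and from Nfkbia in Crym KO, and library size scaling from Nr3c1 in Crym KO, while Zbtb16 in Crym KO gained the call with library size scaling, the replicate block and the block by mouse (adjusted p = 0.0492, 0.0333 and 0.0114). The cause was not tested. Beyond these, the block changed no call on a member. Calls on the other glucocorticoid-induced genes were 0 in both genotype contrasts under every alternative run, and 12 to 18 in Control IP against Input (14 in the reported analysis, beside 75.3% of all genes). Co-variation pairs that passed were 0 with 1 CPM added before logs and with library size scaling, the only alternatives run with a test. With 4 mice a group, p-values cover the spread between these mice.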
